A study of Mus musculus with 66 samples.

Results

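CREM and 9 genes of the transcription and polyadenylation machinery that surrounds it were followed through the first wave of spermatogenesis in the mouse testis. The genes are Crem, Fhl5, Creb1, Crebbp, Atf1, Atf2, Tbp, Tbpl1, Papola and Papolb. A probe set, the group of oligonucleotides that reads a transcript on these arrays, was used only where the annotation of the array named a single gene of this set and no other gene. That gave 33 of the 36701 probe sets that are not controls. They cover 8 of the 10 genes, of 15964 genes with a probe set of their own. Creb1 had 7 probe sets, Papola 6, Crem and Crebbp 5 each, Atf2 and Tbpl1 3 each, and Tbp and Papolb 2 each. No probe set named Fhl5. The only probe set that named Atf1 also named the pseudogene Atf1-ps, so that neither Fhl5 nor Atf1 has a value here.

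Whole testes of BL/6-129 mice were sampled at 11 ages, on postnatal days 0, 3, 6, 8, 10, 14, 18, 20, 30, 35 and 56. There were 2 samples, numbered 1 and 2, for every day, on each of the array types A, B and C, for 66 arrays in all. The labels number the arrays of each type in the same way. It was not settled that a number stands for the same RNA on all types. The Gapdh control ratio given below orders the numbers differently between types, while the actin control ratio has no such order. Genes on different array types were compared over day means, which do not depend on the numbers. No treatment or mutation distinguishes the groups, so age is the only factor, and total RNA of the whole organ was measured. The labels do not say whether the samples of a day came from separate animals or from pools. The p-values therefore describe only these samples, whose spread may be technical. Days 0 to 10 (10 arrays per type) precede the pachytene stage of meiosis, days 14 to 20 (6 arrays) run from pachytene spermatocytes to the appearance of spermatids, and days 30 to 56 (6 arrays) hold spermatids and, at the end, sperm. Because whole organs were measured, fewer cells of a type and less RNA per cell cannot be told apart.

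CREM is a basic leucine zipper factor that binds cAMP-response elements, as do its relatives CREB1, ATF1 and ATF2. In most tissues CREB1 is activated by phosphorylation and then recruits the coactivator CBP, the product of Crebbp, whereas in mouse spermatids CREM works with ACT, the LIM-only protein encoded by Fhl5, without that phosphorylation. Male mice without CREM arrest at the round spermatid stage and fail to express many postmeiotic genes. TBP is the subunit of TFIID that binds the TATA box, and TBPL1 is its relative, which does not bind that sequence and is needed for spermiogenesis in the mouse. PAPOLA is the general nuclear poly(A) polymerase, and PAPOLB is a testis form found in the cytoplasm of spermatids.

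Signals are array intensities on a linear scale that the authors scaled to a mean of 125, and each probe set has its own response, so levels are compared between ages within a probe set and never between probe sets. A probe set was tested where it reached a signal of 50 on at least 2 of the 22 arrays of its type, which 23 of the 33 did. Changes were fitted in limma on log2(signal + 16), which understates the change of dim probe sets. A probe set was called where the Benjamini-Hochberg adjusted p, over all 26941 tested probe sets, was under 0.05 and the change was at least 1 on the log2 scale. By this rule 3 of the 23 were called higher at days 30 to 56 than at days 0 to 10, where 11.7% of all tested probe sets were called higher. Lower calls numbered 5 of 23, where 17.9% of all tested probe sets were called lower. Across the 11 days the F-test called 12 of 23 members, with 45% of all probe sets called. The 3 higher calls were Papolb, Tbpl1 and Tbp, and the 5 lower calls fell on Creb1, Crebbp and Papola, as the plot of the 23 changes shows. These shares are close to those of the arrays as a whole, and the account below therefore rests on the single genes.

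**Figure D1:**
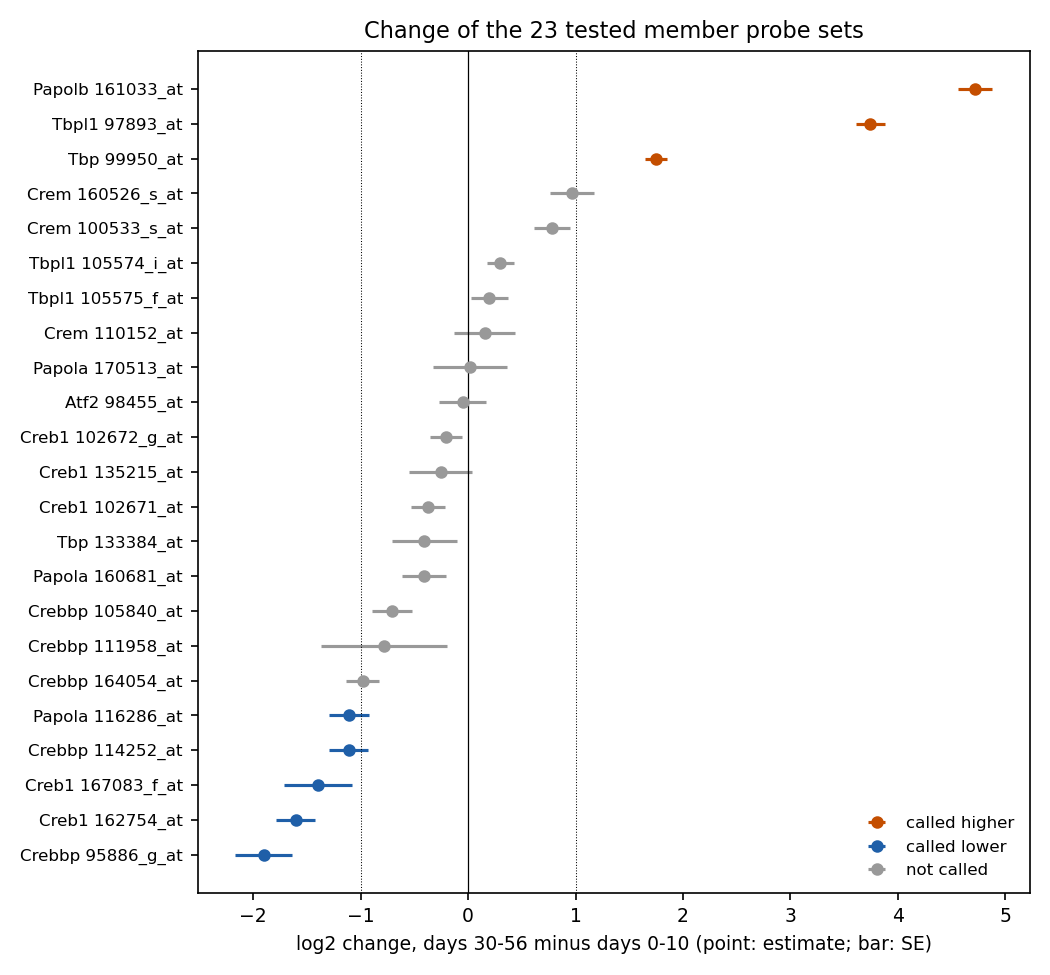
Change of each of the 23 tested probe sets, days 30 to 56 minus days 0 to 10, on the log2(signal + 16) scale, with a bar of 1 SE to each side and dotted lines at a change of 1 in either direction. Papolb, Tbpl1 97893_at and Tbp 99950_at stand alone on the right at 4.72, 3.74 and 1.75, and the lowest value is -1.90 for Crebbp 95886_g_at.

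The trimmed mean signal lay between 122.97 and 124.52 on all 66 arrays, and the 2 samples of a day correlated between 0.889 and 0.976 on type A, 0.804 and 0.950 on type B and 0.780 and 0.941 on type C. Spermatid markers checked the ages: 6 of 7 were called higher at days 30 to 56 than at days 0 to 10, with a median log2 change of 5.05. Spermatocyte markers were called higher in 3 of 4 tested cases, where 14.9% of all genes were. Of 4 spermatogonial markers, 1 was called higher and 1 lower. Smooth muscle markers were called lower in 3 of 4, Sertoli cell markers in 3 of 7 and Leydig cell markers in 2 of 4. Endothelial markers were called lower in 1 of 3 and macrophage markers in 0 of 3, where 20.6% of all genes were. The part of these cells in the members' falls was not tested. Among the early arrays of type A, sample 1 of day 3 and sample 2 of day 6 stood apart. Their summed signals of 15 spermatid genes were 1386 and 1791, against 484 to 634 on the other 8 arrays of days 0 to 10 and 52722 to 84296 at days 30 to 56. Tbpl1 97893_at read 52.9 and 61.5 on those 2 arrays and Papolb read 11.2 and 24.0, values inside the range of their neighbours. Leaving out any single array moved the log2 change of Tbpl1 97893_at only between 3.70 and 3.79 and that of Papolb only between 4.63 and 4.81.

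Tbpl1, the TBP relative of the testis, rose over the whole course in probe set 97893_at. Its signal was 44.1 and 37.0 at day 0, 52.9 and 34.9 at day 3, 60.0 and 61.5 at day 6, 91.3 and 63.4 at day 8, and 113.9 and 85.5 at day 10. It was 145.5 and 136.4 at day 14, 340.6 and 561.8 at day 18, and 447.0 and 692.6 at day 20. At day 30 it was 1145.3 and 1017.8, at day 35 it was 969.6 and 980.9, and at day 56 it was 932.7 and 1063.1. The climb was slow until day 14, steep to day 30 and flat afterwards, and no array of days 30 to 56 overlapped one of days 0 to 10. The mean was 1018 ± 76.5 at days 30 to 56 (SD, n = 6 arrays) and 64.5 ± 25.4 at days 0 to 10 (SD, n = 10 arrays). The log2 change was 3.74 ± 0.13 (SE), 13.4-fold on the shifted scale, with an adjusted p of 1.71e-13 in limma. It was called higher than day 0 at day 10 and at each later day, the earliest such onset among the members. Of the steps between neighbouring days only day 14 to day 18 was called, at 1.53 ± 0.26 with an adjusted p of 0.00174.

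The other 2 probe sets of Tbpl1, on array type B, did not follow it. Probe set 105574_i_at had a lowest, median and highest signal of 308.7, 390.3 and 439.4 at days 30 to 56 and of 267.7, 298.1 and 412.8 at days 0 to 10, so the stages overlapped. Its log2 change was 0.30 ± 0.12 (adjusted p = 0.0425 in limma), below the 2-fold limit. It was highest at day 18, with 613.7 and 558.3, and at days 14 to 20 its change from days 0 to 10 was 0.62 ± 0.12 (adjusted p = 0.000606 in limma), again under 2-fold. Probe set 105575_f_at had a change of 0.20 ± 0.17 (adjusted p = 0.341 in limma). The suffixes of these identifiers mark probe sets that the manufacturer built from an incomplete set of probes or whose probes match a family of sequences. The family suffix also stands on probe sets used below, among them Creb1 167083_f_at, Prm1 99589_f_at, Fhl4 165791_f_at, Gtf2a1l 166111_f_at and Polr2e 165866_f_at. The files do not show which transcripts each one reads, and the late rise of Tbpl1 is a statement about 97893_at.

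**Figure D2:**
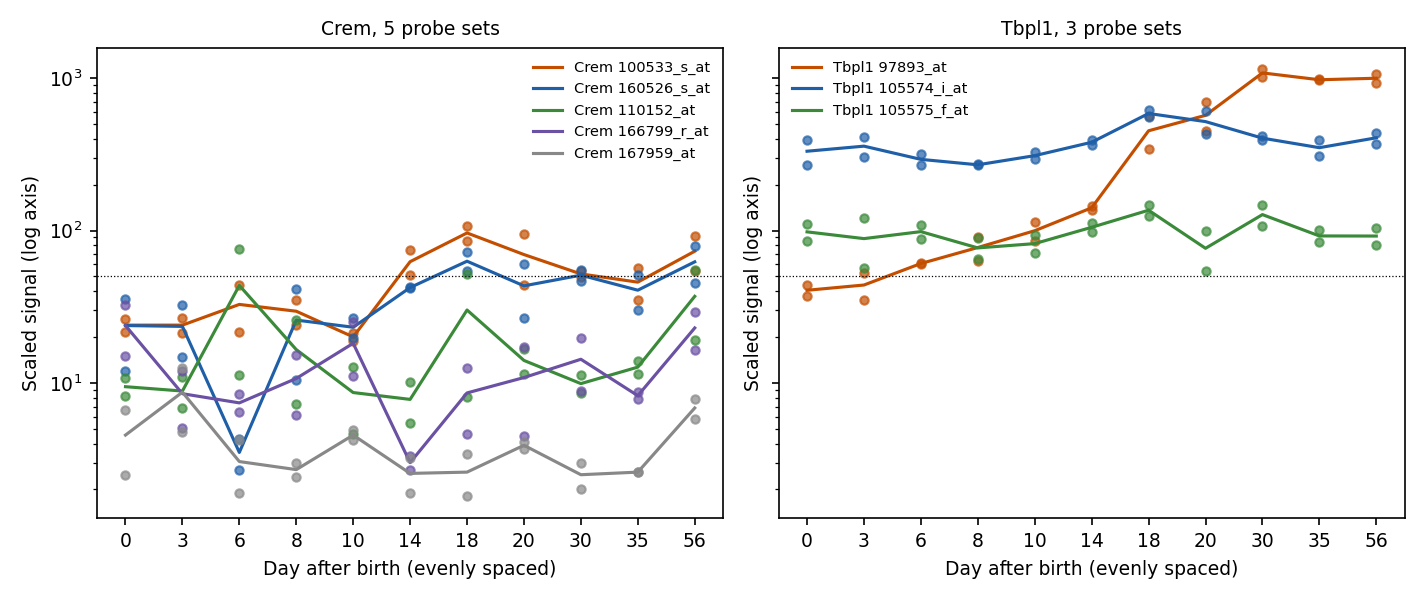
Scaled signal on a log axis of every probe set of Crem (left) and Tbpl1 (right) at the 11 days, which are evenly spaced on the axis; points are arrays, lines join day means and the dotted line is the signal of 50 used as the filter. Tbpl1 97893_at reaches 932.7 to 1145.3 at days 30 to 56, and no Crem array reads above 107.2.

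Tbp, the general factor of this pair, rose as well, but levelled off earlier than Tbpl1 97893_at. Probe set 99950_at read 73.4 and 72.5 at day 0, 87.5 and 84.2 at day 3, 109.3 and 95.4 at day 6, 132.6 and 96.3 at day 8, and 123.9 and 128.8 at day 10. It read 168.7 and 138.7 at day 14, 289.1 and 383.6 at day 18, and 351.1 and 359.6 at day 20. It then stayed level, with 360.6 and 347.3 at day 30, 342.1 and 315.7 at day 35, and 476.7 and 391.9 at day 56. The mean was 372 ± 56.9 at days 30 to 56 (SD, n = 6) and 100 ± 22.2 at days 0 to 10 (SD, n = 10), without overlap. Its log2 change was 1.75 ± 0.10, 3.36-fold, with an adjusted p of 9.95e-11 in limma. The step to day 18 was called, at 1.05 ± 0.20 above day 14 (adjusted p = 0.00440 in limma), and every later day was called above day 0. Most of the rise was complete by days 14 to 20, when the change was 1.29 ± 0.10, and the further change to days 30 to 56 was 0.46 ± 0.11 (adjusted p = 0.00387 in limma), below 2-fold. The second probe set, 133384_at on type C, was dim, with signals of 11.5 to 54.2 at days 30 to 56 and 14.7 to 72.7 at days 0 to 10, and its change was not called (-0.41 ± 0.30, adjusted p = 0.262 in limma).

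Set against each other on the same arrays, Tbpl1 97893_at changed more than Tbp 99950_at. The difference of their log2 signals averaged 1.42 ± 0.25 at days 30 to 56 (SD, n = 6 arrays) and -0.57 ± 0.22 at days 0 to 10 (SD, n = 10 arrays). Such a difference is not a ratio of transcripts, because the probe sets respond differently, but its shift with age is the difference of the 2 changes. That shift was 1.99, the stages did not overlap, and the two-sided exact permutation test over arrays gave the smallest p it can give with 8008 regroupings, 0.000125 (0.0005 after adjustment over the 4 pairs). The test takes each array as a unit, although 2 arrays share a day. The result belongs to Tbpl1 97893_at alone. With 105574_i_at in its place the shift was -1.45 and with 105575_f_at it was -1.55, so that Tbp rose more. These reversed values were computed over day means because the probe sets lie on different array types, and the two-sided exact permutation test gave an adjusted p of 0.0179 for each, the smallest it allows.

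The promoters of this pair are shown because both genes rose together. RefSeq places the start of Tbpl1 behind chr10:22731448-22731597, strand -, and that of Tbp behind chr17:15499738-15499887, strand +, on build GRCm38.p6, and the 150 bases before each start are given 5′ to 3′ without capitals, since none of the 3 motifs searched was found in them. Those motifs were the full cAMP-response element TGACGTCA, its core TGACG and the TATA box TATAAA, each on both strands of the 250 bases before a start. They occur in 1.55%, 17.8% and 12.4% of 32851 mouse promoters.
Tbpl1: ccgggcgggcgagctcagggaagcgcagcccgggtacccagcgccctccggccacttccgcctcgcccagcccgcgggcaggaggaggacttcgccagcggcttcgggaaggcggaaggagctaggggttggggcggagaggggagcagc
Tbp: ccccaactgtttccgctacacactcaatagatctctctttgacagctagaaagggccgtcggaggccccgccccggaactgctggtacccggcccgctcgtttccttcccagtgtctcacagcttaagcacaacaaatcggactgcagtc

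Papolb, the testis poly(A) polymerase, showed the largest change among the members. Probe set 161033_at read 22.1 and 4.3 at day 0, 11.2 and 8.5 at day 3, 36.8 and 24.0 at day 6, 13.0 and 6.9 at day 8, 22.2 and 17.2 at day 10, and 16.2 and 21.4 at day 14. It read 117.7 and 200.1 at day 18 and 135.1 and 236.8 at day 20. It read 757.1 and 691.0 at day 30, 672.5 and 690.7 at day 35, and 1027.7 and 1113.6 at day 56. The signal thus stayed low to day 14, took a first step by day 18 and a larger plateau by day 30. Both steps were called in limma, day 18 minus day 14 at 2.29 ± 0.31 (adjusted p = 0.000236) and day 30 minus day 20 at 1.92 ± 0.31 (adjusted p = 0.000535). The mean was 825 ± 194 at days 30 to 56 (SD, n = 6) and 16.6 ± 9.88 at days 0 to 10 (SD, n = 10). The log2 change was 4.72 ± 0.16, 26.3-fold on the shifted scale, with an adjusted p of 8.42e-14 in limma. Since the early signals lie below the pseudocount of 16 or near it, that fold is sensitive to it: the change was 5.74 with a pseudocount of 1 and 3.45 with a pseudocount of 64. The other probe set, 169166_r_at on type C, stayed between 4.4 and 45.3 on all 22 arrays and was not tested.

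Papola, the general enzyme, was called lower in its brightest probe set alone. Its brightest probe set, 116286_at, had a lowest, median and highest signal of 406.9, 600.9 and 711.9 at days 30 to 56 and of 938.6, 1284.8 and 1631.5 at days 0 to 10, without overlap. At day 20 the 2 samples were far apart, at 890.6 and 280.4. The log2 change was -1.11 ± 0.19 with an adjusted p of 5.94e-05 in limma, which is just past the 2-fold limit. Without sample 2 of day 35 on type B it was -0.98 and no longer called, and with every array set to a common median signal it was -0.83 and not called. Another 2 probe sets were tested: 160681_at changed by -0.41 ± 0.21 (adjusted p = 0.0969 in limma) and 170513_at by 0.02 ± 0.35 (adjusted p = 0.971 in limma). The remaining 3, 97996_at, 164696_r_at and 168881_at, reached 50 on at most 1 array and were not tested.

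The poly(A) polymerases moved apart. The difference of the log2 signals of Papolb and Papola was 0.47 ± 0.29 over the day means of days 30 to 56 (SD, n = 3 days) and -5.36 ± 0.35 over those of days 0 to 10 (SD, n = 5 days). Its shift of 5.82 had a p of 0.0179 in the two-sided exact permutation test over day means, the smallest that 56 regroupings allow, and the adjusted p over the 4 pairs was the same. Against Papola 160681_at, which lies on the same arrays as Papolb, the shift was 5.13 with an adjusted p of 0.000312 in the exact permutation test over arrays. The plot of pair differences shows that the 2 stages are furthest apart for this pair.

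The 250 bases before the start of each polymerase gene are shown because Papolb 161033_at was called higher and Papola 116286_at lower. Papolb lies at chr5:142530077-142530326, strand -, and Papola at chr12:105784447-105784696, strand +, both on GRCm38.p6 and from RefSeq. Capitals mark the core of the cAMP-response element, read here from the other strand as CGTCA. The Papola promoter holds it at 237, 67 and 7 bases before the start, and the Papolb promoter holds none of the 3 motifs. The match says only that these letters stand there.
Papolb: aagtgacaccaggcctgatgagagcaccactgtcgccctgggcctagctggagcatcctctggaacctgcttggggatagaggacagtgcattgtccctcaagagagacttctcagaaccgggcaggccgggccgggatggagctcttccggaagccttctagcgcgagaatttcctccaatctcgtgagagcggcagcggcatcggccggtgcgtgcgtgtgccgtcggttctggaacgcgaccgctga
Papola: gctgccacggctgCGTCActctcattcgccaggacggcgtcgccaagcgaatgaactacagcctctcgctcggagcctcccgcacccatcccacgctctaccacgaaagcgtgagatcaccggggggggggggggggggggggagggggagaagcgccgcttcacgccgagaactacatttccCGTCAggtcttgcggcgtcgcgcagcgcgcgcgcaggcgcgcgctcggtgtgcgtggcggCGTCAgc

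**Figure D3:**
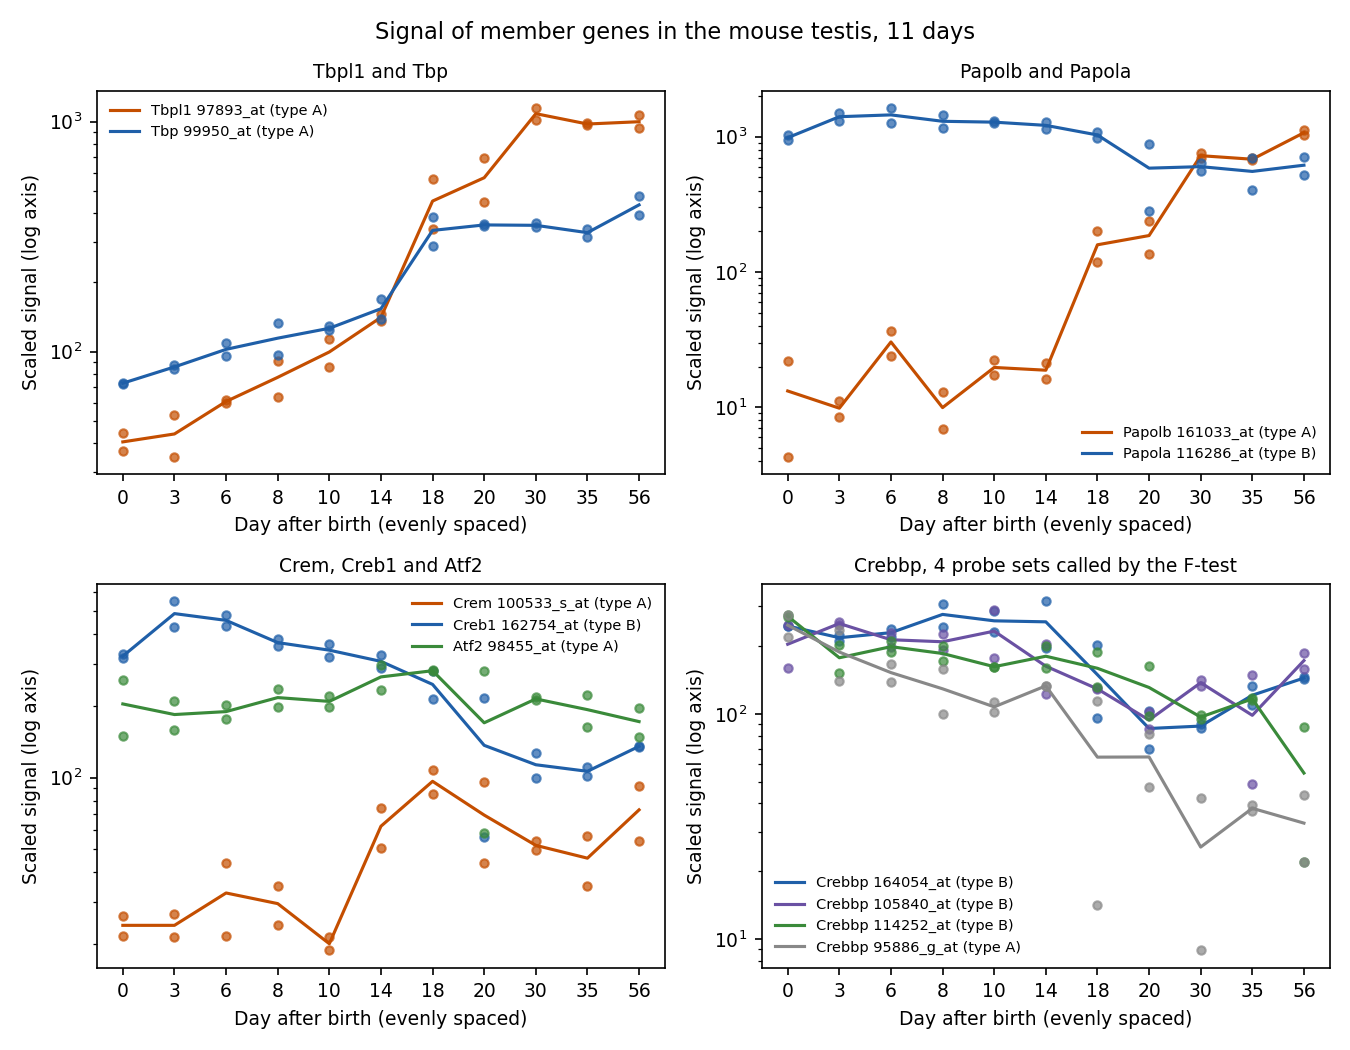
Scaled signal on a log axis against day after birth, evenly spaced, for Tbpl1 and Tbp, for Papolb and Papola, for Crem, Creb1 and Atf2, and for 4 probe sets of Crebbp; points are the 2 arrays of a day and lines join the day means. Tbpl1, Tbp and Papolb step up at day 18, Papolb again at day 30, while Creb1, Papola and Crebbp 95886_g_at are lower at days 30 to 56 than at days 0 to 10. Heights of different probe sets are not comparable.

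Crem itself was dim on these arrays, and its 5 probe sets are given in turn. Probe set 100533_s_at on type A carried the clearest age pattern. It read 21.7 and 26.2 at day 0, 26.6 and 21.3 at day 3, 43.8 and 21.7 at day 6, 35.1 and 24.0 at day 8, and 18.8 and 21.3 at day 10. It read 74.2 and 50.7 at day 14, 107.2 and 85.6 at day 18, and 43.7 and 95.4 at day 20. It read 54.2 and 49.6 at day 30, 56.6 and 35.1 at day 35, and 54.1 and 92.2 at day 56. The signal was therefore highest around day 18, and at days 30 to 56 it lay between that level and the early one, overlapping both. The mean over days 14 to 20 was 76.1 ± 25.0 (SD, n = 6), against 26.1 ± 7.72 over days 0 to 10 (SD, n = 10), and the log2 change of 1.10 ± 0.17 was called (adjusted p = 6.08e-05 in limma). The mean over days 30 to 56 was 57.0 ± 18.9 (SD, n = 6), and its change from days 0 to 10, 0.78 ± 0.17, passed the adjusted p (0.000685 in limma) but not the 2-fold limit. With a pseudocount of 1 in place of 16 that change was 1.09 and was called, and with a pseudocount of 64 it was 0.42 and was not. From days 14 to 20 to days 30 to 56 the change was -0.33 ± 0.19, which was not called (adjusted p = 0.196 in limma). Against day 0, days 18, 20 and 56 were called higher, at 1.49, 1.03 and 1.13, and days 30 and 35 were not.

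Probe set 160526_s_at, also on type A, was noisier and reached a similar range. It read 11.9 and 35.7 at day 0, 32.3 and 14.7 at day 3, 4.3 and 2.7 at day 6, 41.3 and 10.4 at day 8, and 19.7 and 26.7 at day 10. It read 41.8 and 42.7 at day 14, 54.0 and 71.8 at day 18, and 26.8 and 59.9 at day 20. It read 55.3 and 46.6 at day 30, 50.9 and 30.3 at day 35, and 45.1 and 79.5 at day 56. Here the level of days 14 to 20 was kept at days 30 to 56, with a change between those stages of 0.04 ± 0.23. Against days 0 to 10 the late change was 0.97 ± 0.21, an adjusted p of 0.000640 in limma and just short of 2-fold. It was called under quantile normalization (1.07), under median scaling (1.13), with days 0 and 20 left out (1.01), with a pseudocount of 1 (1.62) and when any of 5 single arrays was left out. With a pseudocount of 64 it was 0.46 and was not called.

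The other 3 Crem probe sets showed no change with age that could be called. Probe set 110152_at on type B read 8.6, 12.7 and 55.0 as lowest, median and highest signal at days 30 to 56, and 4.6, 10.8 and 76.1 at days 0 to 10. It reached 50 on 3 arrays, sample 2 of days 6, 18 and 56, where sample 1 read 11.2, 8.1 and 19.0. Its late change was 0.16 ± 0.28 (adjusted p = 0.660 in limma). On type C, 166799_r_at read 7.8 to 29.4 at days 30 to 56 and 5.1 to 32.5 at days 0 to 10, and 167959_at read 2.0 to 7.9 at days 30 to 56 and 1.9 to 12.6 at days 0 to 10. Neither reached 50 on any array, and neither was tested. The late changes of the 3 tested probe sets were compared in pairs. None of the 3 pairs passed 0.05 after adjustment in the two-sided exact permutation test: 100533_s_at minus 160526_s_at was -0.19 (adjusted p = 0.4996), 100533_s_at minus 110152_at was 0.62 (adjusted p = 0.0536; its unadjusted p of 0.0179 is the smallest that 56 regroupings allow) and 110152_at minus 160526_s_at was -0.81 (adjusted p = 0.295). These values do not show that the probe sets agree. The annotation gives the gene and not the isoform, and Crem makes both activators and repressors from its transcripts, so the probe sets cannot be assigned to either kind here.

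Creb1, the general relative of Crem, fell in its brightest probe set. Probe set 162754_at on type B read 330.5 and 316.2 at day 0, 427.0 and 548.7 at day 3, 433.7 and 480.2 at day 6, 356.2 and 381.0 at day 8, and 321.6 and 363.5 at day 10. It read 326.7 and 288.1 at day 14, 213.2 and 278.9 at day 18, and 216.6 and 56.4 at day 20. It read 126.3 and 100 at day 30, 111.0 and 101.4 at day 35, and 136.1 and 134.3 at day 56. All late arrays lay below all early ones. The mean was 118 ± 16.2 at days 30 to 56 (SD, n = 6) and 396 ± 75.9 at days 0 to 10 (SD, n = 10), a log2 change of -1.61 ± 0.18 (adjusted p = 5.42e-07 in limma). It was called below day 0 at day 20 and at each later day. The dimmer 167083_f_at on type C was called too, at -1.40 ± 0.32 (adjusted p = 0.00109 in limma), but its late arrays overlapped the early ones, with 1.8 to 32.8 against 17.1 to 88.9. With a pseudocount of 64 its change was -0.62 and was not called. This probe set passed the filter through early arrays alone, since its highest signal at days 14 to 20 was 33.7. The F-test over days did not call it (adjusted p = 0.0966).

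None of the other probe sets of Creb1 was called lower. On type A, 102671_at changed by -0.38 ± 0.16 (adjusted p = 0.0498 in limma) and 102672_g_at by -0.21 ± 0.15 (adjusted p = 0.247 in limma). On type C, 135215_at changed by -0.26 ± 0.29 (adjusted p = 0.474 in limma). Its 2 samples often disagreed, with 46.3 and 206.4 at day 6, and it was called above day 0 at day 14 alone, at 1.92 ± 0.57 (adjusted p = 0.0419 in limma). The remaining 102673_at and 169750_at did not pass the filter. A fall of Creb1 is therefore a statement about 2 of its 7 probe sets.

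Crem 100533_s_at and Creb1 changed differently in the probe sets compared. The difference of the log2 signals of Crem 100533_s_at and Creb1 162754_at was -0.91 ± 0.10 over the day means of days 30 to 56 (SD, n = 3 days) and -3.29 ± 0.23 over those of days 0 to 10 (SD, n = 5 days). The shift of 2.38 had an adjusted p of 0.0179 in the two-sided exact permutation test over day means, the smallest it allows. Against the Creb1 probe sets on the same arrays as Crem the shift was smaller, 1.15 for 102671_at and 0.98 for 102672_g_at, with adjusted p of 0.000312 and 0.00187 in the exact permutation test over arrays. The sign was the same for all 3 Creb1 probe sets compared. Creb1 135215_at and 167083_f_at were not compared singly, nor were the other Crem probe sets.

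Atf2, a stress-responsive relative that binds the same element, showed no called change. Probe set 98455_at read 147.3 to 222.8 at days 30 to 56, with a mean of 193 ± 31.0 (SD, n = 6), and 149.9 to 257.5 at days 0 to 10, with a mean of 200.4 ± 33.1 (SD, n = 10). The late change was -0.05 ± 0.22 (adjusted p = 0.857 in limma), and the F-test over days did not call it (adjusted p = 0.688). A single array, sample 1 of day 20, read 58.7 where the other 5 arrays of days 14 to 20 read 232.3 to 296.8. On the same arrays, Crem 100533_s_at minus Atf2 shifted by 0.83 between days 30 to 56 (-1.54 ± 0.35, SD, n = 6) and days 0 to 10 (-2.37 ± 0.32, SD, n = 10). The stages did not overlap, and the adjusted p was 0.0005 in the two-sided exact permutation test. The other probe sets of Atf2, 162010_r_at and 137244_at, never reached 50. Neither the comparison of Crem with Atf1 nor that of Fhl5 with Crebbp could be made, for want of a probe set.

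**Figure D4:**
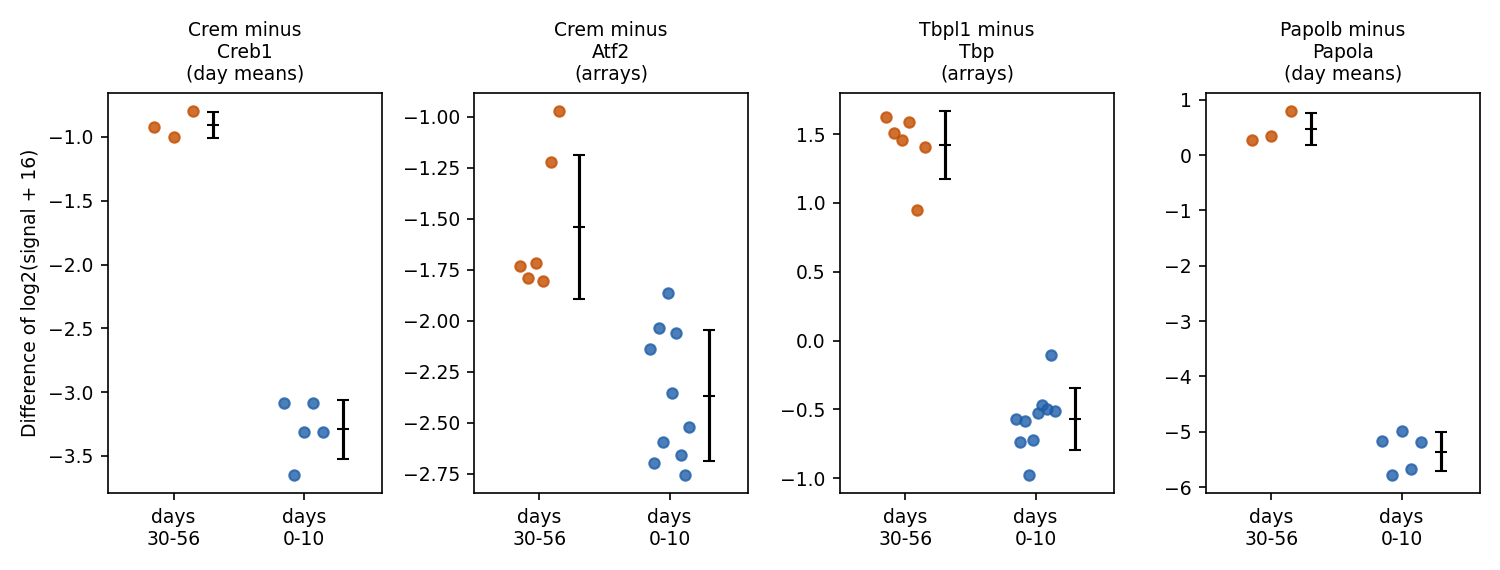
Difference of log2(signal + 16) between the 2 genes named above each panel, at days 30 to 56 and at days 0 to 10; points are arrays or, where the genes lie on different array types, day means, and the bars give the mean and 1 SD to each side. The stages do not overlap in any of the 4 pairs, with shifts of 2.38, 0.83, 1.99 and 5.82; the height within a panel depends on the probe sets and is not a ratio of transcripts.

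Crebbp, which encodes the coactivator CBP, was called lower late in the course in 2 of its 5 probe sets. Probe set 95886_g_at on type A read 274.9 and 220.0 at day 0, 236.4 and 139.6 at day 3, 137.8 and 166.9 at day 6, 158.5 and 99.7 at day 8, and 113.1 and 101.6 at day 10. It read 133.5 and 132.6 at day 14, 114.2 and 14.2 at day 18, and 81.4 and 47.2 at day 20. It read 42.3 and 8.9 at day 30, 36.9 and 39.2 at day 35, and 21.9 and 43.5 at day 56. The signal was already falling between day 0 and day 10, and the late arrays lay below all early ones. The change was -1.90 ± 0.26 (adjusted p = 6.68e-06 in limma), with calls below day 0 at day 18 and at each later day, the earliest lasting fall among the members. The call at day 18 rests on arrays that read as far apart as 114.2 and 14.2.

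On type B, 114252_at had a lowest, median and highest signal of 21.9, 96.7 and 117.8 at days 30 to 56 and of 152.2, 193.6 and 273.6 at days 0 to 10. Its change was -1.11 ± 0.18 (adjusted p = 4.34e-05 in limma). The lowest of those late signals came from sample 2 of day 56, and without that array the change was -0.87 and not called. It was also not called under median scaling (-0.87), quantile normalization (-0.96) or a pseudocount of 64 (-0.80). Probe set 164054_at lay without overlap at 86.4 to 146.0 at days 30 to 56 and 210.6 to 308.4 at days 0 to 10, and its change of -0.98 ± 0.15 (adjusted p = 2.45e-05 in limma) fell just short of 2-fold. It was called in that comparison when sample 1 of day 8, 10 or 35 on type B was left out, and against day 0 it was called lower at days 20 and 30 (-1.38 and -1.33). Probe set 105840_at changed by -0.71 ± 0.19 (adjusted p = 0.00313 in limma), below 2-fold.

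The fifth Crebbp probe set, 111958_at on type B, split by sample number, and in sample 1 it was also lower with age. Sample 1 read 307.6, 275.2, 271.2, 267.8, 234.1, 175.8, 83.4 and 73.9 at days 0, 3, 6, 8, 10, 14, 18 and 20, and sample 2 read 13.0, 32.8, 38.8, 67.3, 22.3, 25.9, 14.2 and 47.7 on the same days. At days 30, 35 and 56 sample 1 read 61.1, 73.6 and 32.5 and sample 2 read 77.6, 35.5 and 44.9, without a common order. Its change of -0.78 ± 0.59 was not called (adjusted p = 0.270 in limma). A control ratio also differed by sample number: the 3′ to 5′ signal ratio of the Gapdh control, a sign of RNA integrity and labelling, was on type B 0.828 to 0.923 in sample 1 and 0.648 to 0.682 in sample 2 at days 3 to 20. On type C sample 1 was likewise the higher on each of those days, with 0.907 and 0.693 at day 8, and on type A it was the lower on each, with 0.669 and 0.894 at day 8. At day 0 the order was the other way on each type, with 0.790 in sample 1 and 0.879 in sample 2 on type B. The same ratio of the actin control kept no order by sample number over days 3 to 20 on any type. On type B it was 1.318 in sample 1 and 1.505 in sample 2 at day 3, and 1.507 and 1.388 at day 8. From day 8 to day 20 sample 1 was the higher on that type, with 1.594 and 1.239 at day 18. The part of these ratios in the split was not tested.

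The members were also compared stage by stage. At days 14 to 20 compared with days 0 to 10, 4 of 23 probe sets were called higher, Tbpl1 97893_at at 2.16, Papolb at 1.74, Tbp at 1.29 and Crem 100533_s_at at 1.10, where 5.55% of all probe sets were called higher. None was called lower, where 5.14% of all were, although 6 had an unadjusted p under 0.05 in limma in that direction. Of these, 5 also had an adjusted p under 0.05 and fell short of 2-fold. At days 30 to 56 compared with days 14 to 20, only Papolb (2.97) and Tbpl1 97893_at (1.58) were called higher, against 6.97% of all probe sets. None was called lower in that interval, where 6.12% of all were. Again 6 had an unadjusted p under 0.05 in limma for a fall, and 5 had an adjusted p under 0.05 with a change short of 2-fold. The single step with the most member calls was day 14 to day 18, with Papolb, Tbpl1 and Tbp of 23 called higher, where 2.57% of all probe sets were, and day 20 to day 30 called Papolb alone, where 3.59% were. Day by day against day 0, all tested probe sets were called higher in 2.03% at day 10, 4.33% at day 14, 8.47% at day 18, 9.09% at day 20 and 12.5% at each of days 30, 35 and 56, and lower in 8.58%, 11.3%, 16.3%, 17.3% and 17.3% at days 18, 20, 30, 35 and 56. Against these, 1, 2, 4, 4, 3, 3 and 4 of the 23 members were higher at days 10 to 56, and 1, 4, 4, 4 and 3 were lower at days 18 to 56. A lasting onset, from which every later day was called, came at day 10 for Tbpl1 97893_at and at day 18 for Papolb and Tbp. Arrays of days 30 to 56 lay outside the range of days 0 to 10 in 8 of the 23, in 3 above it and in 5 below, and 30.4% of all tested probe sets did so.

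The day patterns of the member genes are compared without a test, because the points share the same 11 days. Over them, the log2 day means of Tbpl1 and Tbp had a Pearson correlation of 0.979, Papolb and Tbpl1 of 0.962, and Papola and Creb1 of 0.979, each gene through its brightest single probe set on the scale fitted, with 97893_at for Tbpl1. Crem correlated at 0.825 with Tbp, 0.740 with Tbpl1 and 0.639 with Papolb, and at -0.604 with Creb1. Atf2 stood apart from most members, with 0.162 for Crem, -0.226 for Papolb, -0.136 for Tbpl1 and -0.131 for Tbp, and 0.326 to 0.472 for Creb1, Crebbp and Papola. Among all other tested genes, the 5 with the day pattern most like Crem 100533_s_at were Zup1 (r = 0.978), Cep70 (0.969), Taf1b (0.968), Fyttd1 (0.968) and Psip1 (0.962). Those most like Tbpl1 97893_at were Tdrd7 (0.995), Tex2 (0.995), Spata33 (0.993), Adad1 (0.993) and Ica1l (0.993). Those most like Papolb were 2810408I11Rik (0.995), Zbbx (0.993), Exosc3 (0.993), Oit1 (0.992) and Mea1 (0.992).

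Genes known as CREM targets or spermatid genes formed a list of 17, of which 16 were tested, each through its brightest probe set. At days 30 to 56, 15 of the 16 were called higher than at days 0 to 10 and none lower, with a median log2 change of 6.33, where 14.9% of the 13472 tested genes were called higher and 20.6% lower and their median was -0.24. None of the 16 had an unadjusted p under 0.05 in limma for a fall. The genes were listed because they are known from spermatids, so this direction is no independent evidence. Ldhc, the lactate dehydrogenase of germ cells, changed by 8.32 ± 0.38, with 9220 ± 1376 at days 30 to 56 and 27.7 ± 58.0 at days 0 to 10. Tnp2, a transition protein of condensing chromatin, changed by 7.57 ± 0.26. Crisp2, a protein of the acrosome and sperm tail, changed by 7.29 ± 0.28, Prm1, a protamine, by 7.04 ± 0.63, and Gapdhs, the glycolytic enzyme of the sperm tail, by 6.78 ± 0.17. The other tested probe set of Prm1, 168579_r_at, changed by 0.03 ± 0.24. Camk4, a kinase that can phosphorylate CREM, did not reach the filter. Ace, whose testis form starts inside the gene, changed by 0.50 ± 0.16 in its brightest probe set, and 2.68 ± 0.16 in the other, 161224_f_at.

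The timing within the list varied. Of the 16, 5 were called higher at days 14 to 20 than at days 0 to 10, and 14 were called higher at days 30 to 56 than at days 14 to 20. Ldhc read 771.3 and 505.6 at day 14 and 3996.2 and 6409.0 at day 18. Crem 100533_s_at first read above its early range at day 14, and its step from day 14 to day 18 was not called. Prm1 still read 8.2 and 5.1 at day 18 and 11.5 and 6.8 at day 20, and 10499.6 and 12622.4 at day 30. Tnp2 read 26.4 and 21.2 at day 20 and 8574.3 and 10239.1 at day 30. Between these 2 days the Crem probe set read 43.7 and 95.4, and then 54.2 and 49.6, without a called step, while Papolb was called. Any link between Crem and the timing of these genes was not tested.

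A start of Ldhc and the start of Kif17 are printed as examples picked because they hold the element CREM binds or its core. Kif17 is the gene of a kinesin whose testis form carries ACT in mouse spermatids. RefSeq gives chr7:46861143-46861262, strand + for Ldhc and chr4:138262131-138262250, strand + for Kif17 on GRCm38.p6, each 120 bases up to the start, with the matches in capitals. Ldhc has the core at 61 and 47 bases before this start and Kif17 the full element at 86 bases. RefSeq gives Ldhc another start nearby, and the bases before that one hold none of the 3 motifs.
Ldhc: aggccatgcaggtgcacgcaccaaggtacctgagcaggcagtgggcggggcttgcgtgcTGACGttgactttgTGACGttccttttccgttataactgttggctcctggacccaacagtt
Kif17: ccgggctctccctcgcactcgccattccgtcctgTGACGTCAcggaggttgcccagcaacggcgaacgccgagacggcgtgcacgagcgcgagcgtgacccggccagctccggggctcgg
None of the 10 promoters of 9 member genes that were read held the full element or a TATA box, and 2 held the core, Papola and Atf1. The promoter of Crem was not among those read. Of 18 promoters of 14 listed spermatid genes, 1 held the core and 3 a TATA box, where the core is found in 17.8% and the TATA box in 12.4% of all mouse promoters. Of 58 promoters of 32 cAMP-response genes, 3 held the full element, 18 the core and 3 a TATA box. Of 48 promoters of 41 general transcription factor genes, 3 held the full element, 21 the core and 9 a TATA box. Of 23 promoters of 22 genes of 3′ end processing, none held the full element, 10 held the core and 1 a TATA box. The full element is found in 1.55% of all promoters, and these counts carry no test. Only exact letters were searched, so a site with other letters inside the window would not be counted. No match in this window says nothing about binding elsewhere.

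Among 32 tested factors and cofactors of the cAMP response, 4 were called higher and 9 lower at days 30 to 56 than at days 0 to 10, with a median of -0.38 against -0.24 for all genes. Of all 13472 tested genes, 14.9% were called higher and 20.6% lower. Fhl4, a LIM-only protein like ACT, read 25149 ± 5320 at days 30 to 56 and 403 ± 381 at days 0 to 10, a log2 change of 6.26 ± 0.37, and its second probe set changed by 7.04 ± 0.26. It read 20532.5 and 13426.9 by day 18. Creb3l4, a membrane-bound relative of CREB1 known from spermatids, changed by 5.08 ± 0.13, and its 2 samples read 187.5 and 152.6 at day 20 but 2848.8 and 2900.7 at day 30. Kif17 changed by 3.92 ± 0.23, with 1774.7 and 1108.0 at day 30, 2521.0 and 1705.9 at day 35 and 520.7 and 666.9 at day 56. Prkar2a, a regulatory subunit of protein kinase A, changed by 2.53 ± 0.15 in its brightest probe set, while 97096_at changed by 4.09 ± 0.20 and 107139_at by -1.16 ± 0.12, so its probe sets disagreed. The 5 largest falls were Prkar2b, the sister subunit, at -3.50 ± 0.21, Creb5 at -2.97 ± 0.23, Creb3l2 at -2.64 ± 0.16, Fhl1, a LIM-only protein of muscle, at -1.76 ± 0.11 and Creb1. Of the other Creb3l2 probe sets, 109177_at changed by -1.87 ± 0.15 and 112191_at by -0.45 ± 0.13.

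Among 42 tested general transcription factors, 9 were called higher, where 14.9% of all genes were, and 4 lower, where 20.6% were, with a median of -0.04. Gtf2a1l, the germ cell form of the large TFIIA subunit, had the largest rise, 5.96 ± 0.29, with 4295 ± 729 at days 30 to 56 and 63.1 ± 46.1 at days 0 to 10, ahead of Tbpl1 and Tbp. Its general form Gtf2a1 changed by -0.49 ± 0.22 (adjusted p = 0.0639 in limma). Gtf2a2, the small TFIIA subunit, changed by 1.5 ± 0.10, and Btaf1, an ATPase that removes TBP from DNA, by 1.48 ± 0.16. The falls were Polr2e (-1.91 ± 0.20), Polr2j (-1.30 ± 0.16) and Polr2h (-1.26 ± 0.14), subunits of RNA polymerase II, and Taf7 (-1.13 ± 0.19), a TFIID subunit. The other probe sets of Polr2e (-0.91 ± 0.15 and -0.94 ± 0.19) and Taf7 (-0.57 ± 0.22) were not called. Taf4b, the gonadal form of a TFIID subunit, changed by -0.35 ± 0.20 (adjusted p = 0.143 in limma) and its general form Taf4 by -0.98 ± 0.14, just short of 2-fold. Taf7l had no probe set of its own.

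Among 25 factors of 3′ end processing, 5 were called higher, where 14.9% of all genes were, and 5 lower, where 20.6% were, with a median of -0.40. After Papolb, the rises were Pabpc1, a cytoplasmic poly(A)-binding protein, at 1.79 ± 0.12, Sympk, the scaffold symplekin, at 1.77 ± 0.15, Cstf1 at 1.37 ± 0.12 and Rbbp6 at 1.26 ± 0.14. Other probe sets did not follow for Pabpc1 (131455_at, -1.02 ± 0.28), Sympk (171079_at, 0.04 ± 0.15) and Rbbp6 (161760_s_at, -0.68 ± 0.15). The falls were Pabpc4, another poly(A)-binding protein, at -2.47 ± 0.12, Cstf2 at -2.26 ± 0.15, Cpsf6 at -1.75 ± 0.24, Papola and Cstf3 at -1.07 ± 0.14, whose other probe set 100968_at changed by 0.19 ± 0.13. The other Cstf2 probe sets changed by -1.61 ± 0.17 (105599_at) and -0.60 ± 0.18 (166158_r_at). Cstf2, the X-linked subunit that binds RNA downstream of the cleavage site, averaged 41.5 ± 5.52 at days 30 to 56 and 260 ± 33.0 at days 0 to 10. Its autosomal testis form Cstf2t read 175 ± 28.4 at days 30 to 56 and 173 ± 20.8 at days 0 to 10, a change of 0.01 ± 0.11 (adjusted p = 0.965 in limma).

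**Figure D5:**
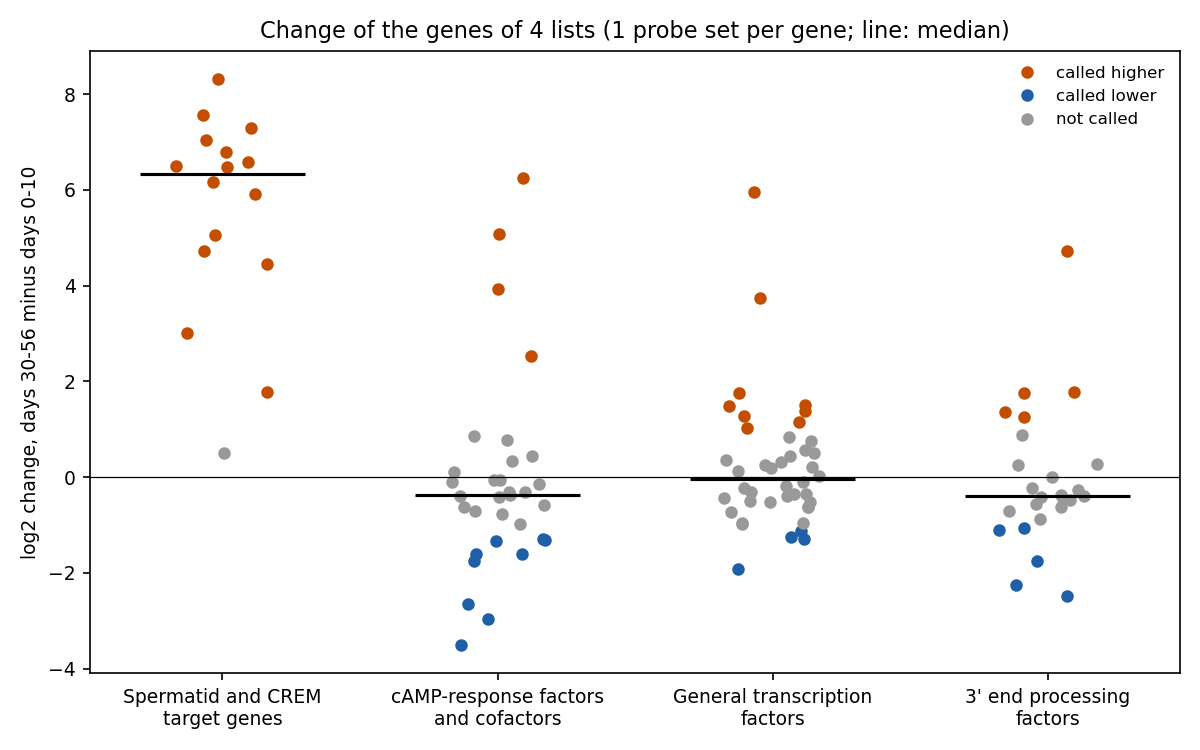
Log2 change from days 0 to 10 to days 30 to 56 of every tested gene of 4 lists, 1 probe set per gene, with a line at the median of each list; the spread along the horizontal axis within a list has no meaning. The spermatid and CREM target genes have a median of 6.33 and the other lists have medians of -0.38, -0.04 and -0.40.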

How the data were processed

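Total RNA of whole mouse testes was measured on 66 arrays, 22 of each of 3 types. The deposited files give a linear intensity for each probe set, and per the labels' descriptions the authors had brought each array to a mean of 125. The software, background correction and detection calls are not given in the sources used here, so the number of arrays and the height of the signal limit the precision. All value columns were matched to samples by title.

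Probe sets were named through the deposited platform annotation, with symbols updated by gene identifier through a RefSeq table (GRCm38.p6), where 29044 of 29131 single-gene probe sets matched. Control probe sets were left out. The array types were modelled separately on log2(signal + 16), with a mean for each of the 11 days, using limma 3.58.1 (R 4.3.3) and trended eBayes. Benjamini-Hochberg adjustment ran over the 26941 probe sets of the 3 types together. A gene of a list stood for its tested probe set with the highest mean signal. Pairs of genes were compared by exact permutation tests over arrays or, across array types, over day means. The tests over arrays ignore that 2 arrays share each day, so their p-values cannot be ranked against those over day means. Promoters were read from RefSeq with Python 3.11.15.

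The members, the lists and the stages were chosen with earlier results of these data known. Named genes are all members, the up to 5 largest called rises and falls of each list, the general and testis forms of 3 further factors and of Cstf2, and the 5 genes most like Crem, Tbpl1 and Papolb in day pattern. Ace 161224_f_at, the further probe sets of list genes and the genes of the control ratio were chosen after their values were seen. Sample numbers were treated as pairing the samples only if deviations from the day means correlated above 0.1 in every pair of days, and they did so in 28, 34 and 23 of 55 pairs on types A, B and C. A number effect shared by some days is therefore possible, and the fit with the number as a block is given as an alternative. Alternatives were pseudocounts of 1 and 64, no filter and a filter of 125, median scaling, quantile normalization, a replicate block, stages as groups, the mean of a gene's probe sets, adjustment over 1 probe set per gene, days 0 and 20 left out, and each array left out.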

Additional observations from a re-analysis of the deposited data

Results flagged for a closer look

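Within a stage and probe set, 9 of 69 groups of arrays held a single array far from the others, where chance gives about 3.5, and days within a stage differ as well. Crem 110152_at read 76.1 in sample 2 of day 6 (others of days 0 to 10, 4.6 to 25.8), 52.1 in sample 2 of day 18 (others of days 14 to 20, 5.5 to 16.6) and 55.0 in sample 2 of day 56 (others of days 30 to 56, 8.6 to 19.0).

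Sample 2 of day 20 on type B was low for Papola 116286_at, at 280.4 (others 890.6 to 1285.8), and for Creb1 162754_at, at 56.4 (others 213.2 to 326.7). Sample 1 of day 20 on type A was low for Atf2 98455_at, at 58.7 (others 232.3 to 296.8). Sample 2 of day 56 on type B was low for Crebbp 114252_at, at 21.9 (others 87.2 to 117.8). Sample 2 of day 35 was low for Crebbp 105840_at on type B, at 48.7 (others 132.9 to 186.5), and high for Creb1 167083_f_at on type C, at 32.8 (others 1.8 to 7.5).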

How the results depend on the processing

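The rise of Tbpl1 97893_at (3.10 to 4.05 over the alternatives other than leaving out arrays), Papolb 161033_at (3.45 to 5.74) and Tbp 99950_at (1.41 to 1.97) and the fall of Creb1 162754_at (-1.72 to -1.32) were called under every alternative run. Tbpl1 minus Tbp reversed to -1.58 under quantile normalization, where 105574_i_at became the brightest Tbpl1 probe set by construction, and to -1.45 and -1.55 with 105574_i_at and 105575_f_at, alternatives chosen after seeing the data, as were the other probe sets of Creb1 and Papola. Members called higher at days 30 to 56 than at days 0 to 10 numbered 5 with a pseudocount of 1, against 3. Members called lower numbered 3 under median scaling, 3 with a pseudocount of 64 and 2 when adjusted over 1 probe set per gene, against 5. That last setting tests fewer probe sets and gave 7 calls in the F-test, against 12. With a pseudocount of 1, 1 member was called lower at days 14 to 20 than at days 0 to 10 and 1 at days 30 to 56 than at days 14 to 20, against 0 each, and 2 were called lower at days 30 to 56 than at days 14 to 20 with days 0 and 20 left out. General transcription factors called lower numbered 7 with a pseudocount of 1 and 2 with one of 64, against 4, and 3′ end factors 3 under median scaling, against 5. The cause of these moves was not tested. Leaving out single arrays gave 0 to 1 lower member in each of those intervals, and 3 to 7 called neighbouring steps against 4. The 7 came without day 20 replicate 2 on type A or replicate 1 on type B. Scaling moved the median change of all genes, -0.24 as deposited, to 0.00 by medians and -0.13 by quantiles, and the share of higher among called genes, 41.9% as deposited, to 54.8% and 45.6%. The replicate block, with numbers that correlate on some days and do not meet the rule for pairing, gave 13 calls in the F-test, 0.83 for Crem minus Atf2 and 1.99 for Tbpl1 minus Tbp (adjusted p = 0.000319 each in the exact permutation test) and changed no other call by over 1.5 times; pairs across array types could not be blocked. A filter of 125 left no Crem probe set. Signal height limits Crem, whose highest reading was 107.2.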
